A study of Mus musculus with 16 samples.

Results

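The regions described here are the beginning and the end of the protein-coding sequence (CDS) of mouse transcripts, seen through ribosome footprints. Footprints were taken where the ribosomal P-site lay in the first 100 or in the last 100 codons of the CDS, start and stop codon included, on transcripts with a CDS of at least 600 nt. Of 2859681 entries in the deposited footprint table, 579443 (20.3%) were members, on 23671 of 74042 transcripts. The start window held 294309 entries on 18765 transcripts and the stop window 285134 on 18018, and 0 entries fell in both.

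Neural stem cells are dividing precursor cells that can be kept in a self-renewing state in culture. The study, on an agent named TAPIR, labelled mouse neural stem cells as gRNA (treatment "GF, gRNA") or control ("GF, control"). It holds 12 mRNA libraries, 6 in each group, and 4 footprint libraries, 2 in each group, with 1 gRNA and 1 control footprint library in each of the batches labelled 1 and 2. The sources used here do not give the target of the guide RNA, the nature of the control, the strain and age of the mice or whether the cultures were separate.

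In translation, the small ribosomal subunit scans to the start codon, which is placed in the P-site when the large subunit joins. The ribosome then moves codon by codon, holding the growing chain in the P-site, until a stop codon enters the A-site while the last sense codon is in the P-site. Nuclease digestion leaves a footprint of the mRNA inside each ribosome. Slow steps leave more footprints, so profiles commonly rise at the start codon and often at the stop codon, and a ramp of higher density over the early codons has been described in many species.

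Of the 4 library names in the table, 0 were found among the labels. The libraries are called libraries 1 to 4 below, in the order of their names, and these numbers are not the labels' replicate numbers. No library could be assigned to gRNA or control, so no comparison between the groups was made and every value is given per library, with the median and range and without a test. Library 1 held 446467 of the members, library 2 held 48263, library 3 held 65518 and library 4 held 19195, so library 1 is the most precise and library 4 the least. Library 1 contained 53.0%, 51.8% and 55.1% of the window entries of libraries 2, 3 and 4 at the same transcript, position and length, and these made up 5.72%, 7.61% and 2.37% of its own. The CDS held 63.0%, 59.6%, 58.4% and 55.5% of all entries in libraries 1 to 4, and transcripts with no CDS 28.1%, 32.96%, 32.3% and 35.7%. The labelled cell type was checked in the mRNA libraries, where all 12 neural stem and progenitor markers had a median of at least 10 CPM, a count scaled to an equal library total. Sox2 ranged from 131.9 to 189.8 CPM and Nes from 461.4 to 718.9 CPM over the 12 libraries. Among markers of other cells, 2 of 6 neuronal (Map2, Syp), 4 of 4 astrocytic, 1 of 5 endothelial and mural (Acta2), 0 of 5 oligodendrocyte and 0 of 5 microglial genes reached that level, and the footprint libraries were not checked for them.

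An entry is 1 combination of library, transcript, position and footprint length of 26 to 32 nt. No 2 entries were identical, so at most 21 entries (3 positions by 7 lengths) can stand on 1 codon of 1 transcript in 1 library. Density below is the number of entries on a codon divided by the mean per codon of codons 51 to 100 of the same window and library, called the reference codons. This reference was 2270, 255.6, 335.3 and 100.6 entries per codon in the start window of libraries 1 to 4, and 2246, 253.7, 313.6 and 92 in the stop window. Intervals are exact Poisson intervals at 95% that cover counting error only. They are too narrow, because transcripts of the same gene can list the same footprint.

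The start codon carried more footprints than the codons further into the CDS in all 4 libraries. It held 4657 entries in library 1, 463 in library 2, 625 in library 3 and 152 in library 4. These counts gave densities of 2.05 (interval 1.99 to 2.11), 1.81 (1.65 to 1.98), 1.86 (1.72 to 2.02) and 1.51 (1.28 to 1.77), with a median of 1.84. In libraries 1 to 3 the start codon stood above every one of the reference codons, whose highest densities were 1.16, 1.39 and 1.46. In library 4 it did not, since the highest reference codon there reached 1.95. The step down to the next codon was immediate: codon 2 had densities of 1.04, 0.790, 1.24 and 0.855.

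**Figure D1:**
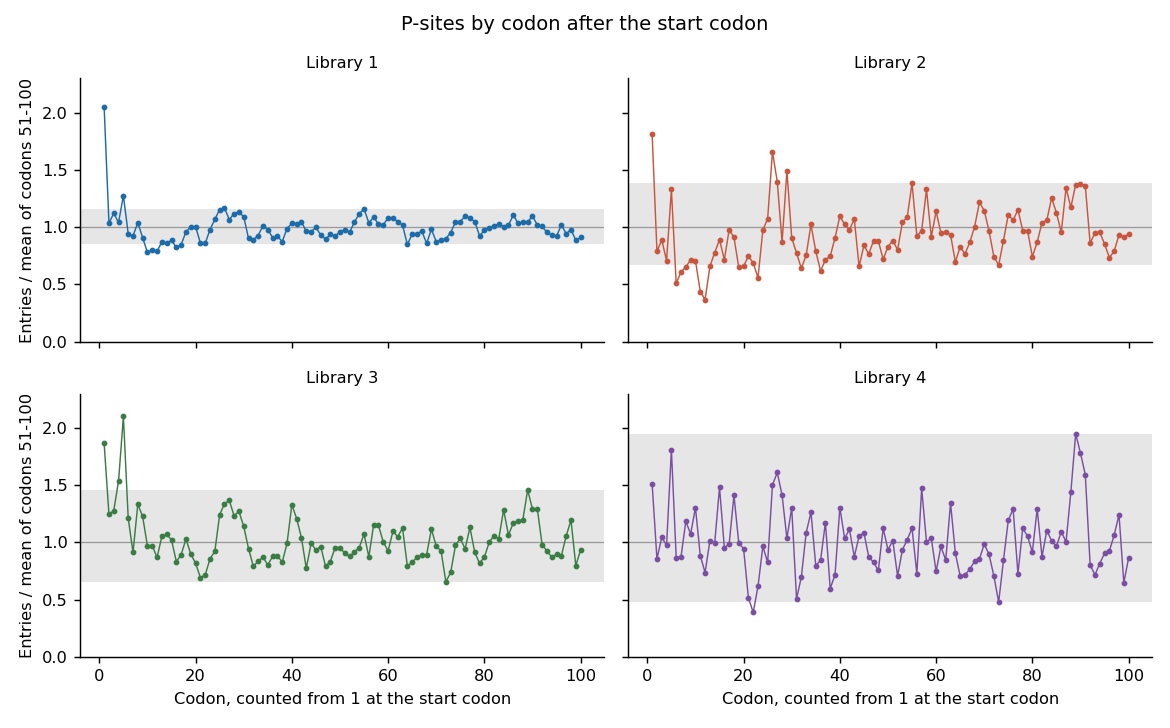
Density by codon over the first 100 codons in each footprint library (x axis, codon counted from 1 at the start codon; y axis, entries over the mean of codons 51 to 100; points, codons; grey band, range of the reference codons). The start codon stands at 2.05, 1.81, 1.86 and 1.51, above the band in libraries 1 to 3 and inside it in library 4.

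The height at the start codon depends on where the P-site was placed within each footprint. In the deposited table the P-site lay 13 or 14 nt from the 5' end, with 14 nt for 2, 3, 2 and 6 of the 7 footprint lengths in libraries 1 to 4. With 13 nt for every length, the start codon density was 1.90, 1.56, 1.77 and 1.09. With 12 nt it was 1.04, 0.869, 1.13 and 0.871, near the level of the reference codons. The sources used here do not say how the deposited positions were set.

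The 5' ends of the footprints do not depend on that choice, and they piled up at 2 neighbouring positions ahead of the start codon. At 14 and 13 nt before its first base, library 1 had 2115 and 2978 ends, library 2 had 235 and 267, library 3 had 286 and 357, and library 4 had 76 and 59. Per nucleotide these positions held 4.15 (interval 4.03 to 4.26), 4.62 (4.23 to 5.04), 2.82 (2.60 to 3.04) and 2.36 (1.98 to 2.79) times the mean of the positions 24 to 17 nt and 10 to 3 nt before the start codon. The pile-up was sharp: library 1 had 462 ends 15 nt before the start codon and 602 ends 12 nt before it. In libraries 1 and 2 the position 13 nt before the start was the highest between 40 nt before and 10 nt after it. In libraries 3 and 4 the highest was 1 nt before the start codon, with 377 and 118 ends, which places the P-site on codon 5. The same position held 1175 ends in library 1 and 176 in library 2.

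**Figure D2:**
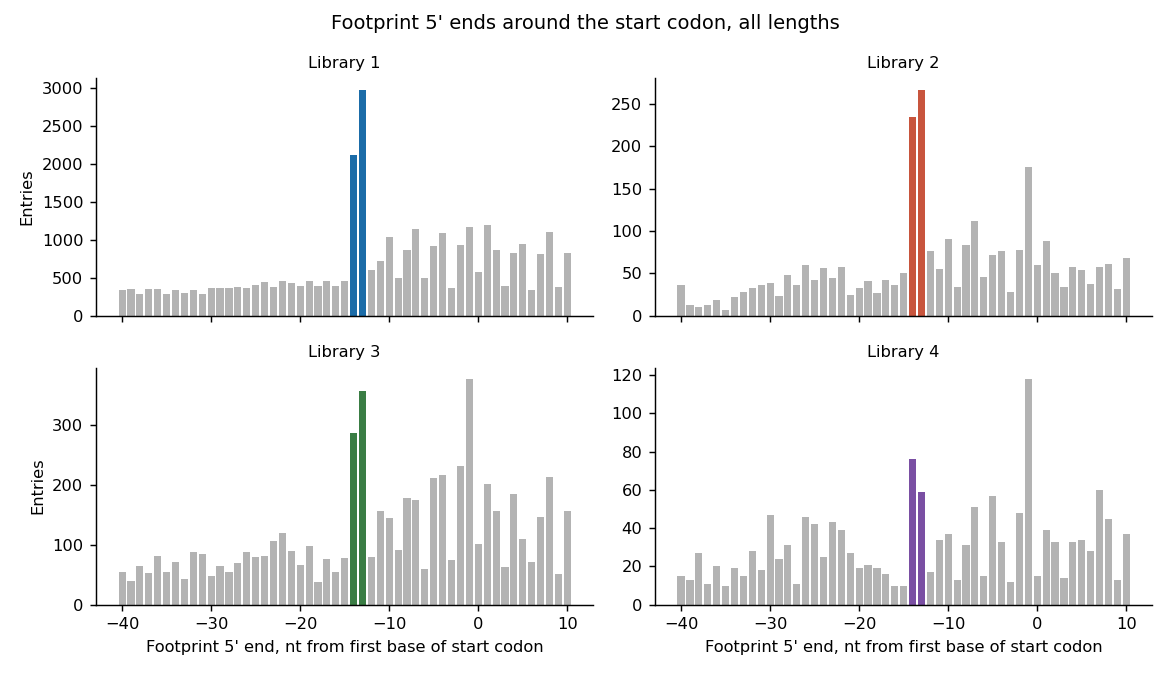
Footprint 5' ends by nucleotide around the start codon in each library (x axis, nt from the first base of the start codon; y axis, entries of all lengths; coloured bars, 14 and 13 nt before the start). The coloured positions are the highest in libraries 1 and 2, and the bar 1 nt before the start is the highest in libraries 3 and 4.

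Footprints of every length stood on the start codon in all 4 libraries. Over lengths of 26 to 32 nt, its density ran from 1.74 (32 nt) to 2.59 (28 nt) in library 1, from 1.12 (26 nt) to 2.62 (31 nt) in library 2, from 1.47 (29 nt) to 2.16 (26 nt) in library 3 and from 1.12 (29 nt) to 1.92 (31 nt) in library 4. The interval lay above 1 for 7, 5, 7 and 3 of the 7 lengths. The order of the lengths differed between libraries, and within libraries 2 to 4 many of the intervals overlapped. Long footprints of 31 and 32 nt made up 47.0%, 46.7%, 42.9% and 37.5% of entries on the start codon, against 51.7%, 41.2%, 44.4% and 34.7% on the reference codons. The share was lower at the start codon in library 1 (interval 45.6% to 48.5%) and higher in library 2 (42.03% to 51.3%), while the intervals of libraries 3 (38.96% to 46.9%) and 4 (29.8% to 45.7%) contained the reference share. With each transcript of 50 or more entries counted equally it was 40.4%, 40.6%, 39.9% and 20.6%.

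**Figure D3:**
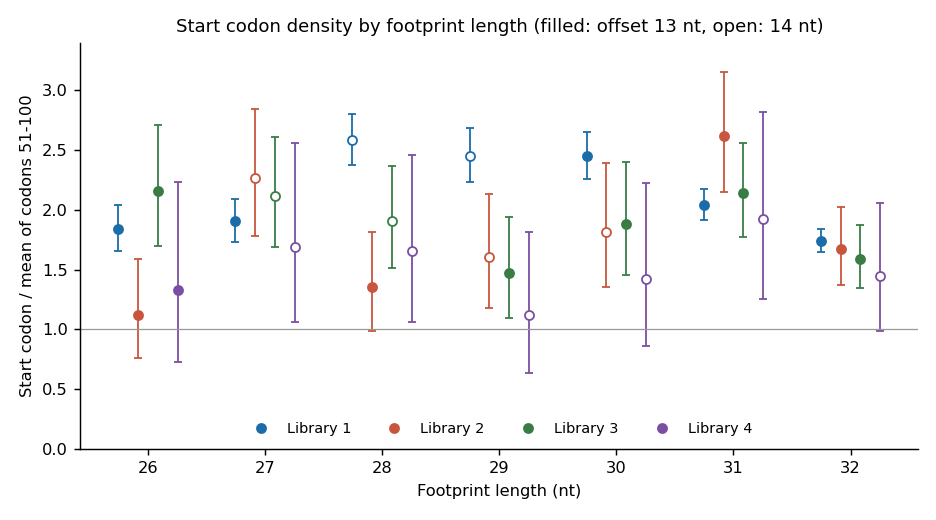
Start codon density by footprint length (x axis, nt) in each library, with exact Poisson intervals at 95%; filled points have a P-site 13 nt and open points 14 nt from the 5' end. The line at 1 is the reference codon mean, and the interval lies above it for 7, 5, 7 and 3 lengths in libraries 1 to 4.

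The reading frame on codon 1 has to be read with the base ahead of it. The share of entries in frame 0, the frame of the coding sequence, was 65.1%, 62.2%, 58.4% and 54.6% on codon 1. It was 45.4%, 41.7%, 45.7% and 39.5% on codons 2 to 10, and 52.9%, 45.1%, 48.8% and 39.5% on the reference codons. Codon 1 leaves out the P-sites 1 nt before its first base, of which there were 1745, 163, 234 and 11, against 3032, 288, 365 and 83 on the first base and 919, 120, 127 and 53 on the base after it. Over these 3 bases the first held 53.2%, 50.4%, 50.3% and 56.5%. The intervals of libraries 1 (51.9% to 54.5%) and 3 (46.6% to 53.97%) contained the frame 0 share of the reference codons, and those of libraries 2 (46.3% to 54.6%) and 4 (48.05% to 64.6%) lay above it. Over the whole start window library 4 had nearly as many entries in frame 1 (39.8%) as in frame 0 (40.0%).

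Against the reference codons, the early codons after the start differed in direction between the libraries. Codons 2 to 34 had a density of 0.975, 0.834, 1.08 and 1.03, with a median of 1.00. The interval lay below 1 in libraries 1 (0.968 to 0.982) and 2 (0.815 to 0.854), above 1 in library 3 (1.055 to 1.09) and around 1 in library 4 (0.999 to 1.07). Their first stretch, codons 2 to 10, stood at 1.01, 0.768, 1.31 and 1.11, below the reference mean in library 2 and above it in libraries 3 and 4. The low value of library 2 was not seen when transcripts were both chosen and weighted differently. With each transcript of 50 or more entries counted equally, codons 2 to 10 had 1.03, 1.05, 1.16 and 1.15 and codons 2 to 34 had 1.00, 1.02, 1.06 and 1.14. These 1388 transcripts were chosen by their entries over the 4 libraries together, so a transcript with few entries in library 2 counted fully there. The choice of transcripts and their weighting were not told apart. On transcripts with a footprint that ended 20 nt or more past the stop codon, codons 2 to 10 had 1.18, 1.05, 1.502 and 1.45 and codons 2 to 34 had 0.995, 0.817, 1.04 and 1.02. Codons 11 to 20 were lower, at 0.885, 0.705, 0.945 and 1.04, and codons 21 to 34 returned to 1.02, 0.969, 1.02 and 0.980. The next stretch, codons 35 to 50, stood at 0.960, 0.845, 0.946 and 0.944, with every interval below 1. In library 2 the interval of codons 2 to 34 contained the value of codons 35 to 50, so its early codons were level with that stretch. On transcripts with a CDS of at least 1200 nt, codons 2 to 34 had 1.05, 0.9504, 1.17 and 1.19.

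Codon 5 was singled out after its values were seen. It held 2896, 340, 704 and 182 entries, or densities of 1.28, 1.33, 2.10 and 1.81. In libraries 1 and 3 this was above every reference codon, and in libraries 2 and 4 it was not. In libraries 3 and 4 codon 5 was higher than the start codon. Its 31 and 32 nt footprints made up 49.3%, 36.8%, 35.4% and 28.6% of its entries, less than on the reference codons of the same library in all 4. The intervals of libraries 1 (47.5% to 51.15%) and 3 (31.8% to 39.03%) lay below the reference share. Those of libraries 2 (31.6% to 42.1%) and 4 (22.1% to 35.7%) contained it. With the P-site at 13 nt for every length, codon 5 stood at 1.29, 1.27, 2.03 and 1.70. With 12 nt it stood at 1.16, 0.775, 1.37 and 0.861, and in frame 0 alone, with the deposited P-site, at 0.993, 1.396, 2.13 and 1.41. Libraries 2 and 4 were thus below the reference mean at 12 nt, and library 1 was level with it in frame 0.

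The 5' untranslated region, where scanning and upstream translation take place, was compared with the CDS beside it. Entries per nucleotide from 30 to 4 nt before the start codon were 47.6%, 49.01%, 48.03% and 61.2% of those from 3 to 29 nt after its first base. That sum includes transcripts too short at the 5' end to hold such P-sites. On the 22810 transcripts with at least 44 nt before the start codon, which can hold them, the values were 56.3%, 56.9%, 57.5% and 75.1%, so the density ahead of the start codon was the lower one in all 4 libraries. Across the whole table the 5' untranslated region held 122689 entries and the 3' untranslated region 128285.

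Start codon density differed between classes of transcripts. On 3475 transcripts with under 13 nt before the start codon in the table's annotation, it was 0.0119 in library 1, from 3 entries, and 0.0331 in library 2, from 1 entry, and libraries 3 and 4 had 0 entries there. With the P-site 13 or 14 nt from the 5' end, the first base of such a start codon is out of reach. On the 24207 transcripts with at least 13 nt before it, the density was 2.31, 2.05, 2.09 and 1.72. With 13 to 49 nt before the start it was 2.91, 2.48, 3.76 and 2.28, and with at least 200 and under 400 nt 2.12, 1.37, 1.49 and 1.12, a difference in the same direction in 4 of 4 libraries. With 400 nt or more it was 2.18, 2.04, 1.40 and 1.47, higher than in the class before it in libraries 1, 2 and 4.

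Start codon density also differed between classes of coverage. Among transcripts with at least 13 nt before the start, those with under 2 entries per 100 nt of CDS over all libraries had start codon densities of 4.25, 1.84, 3.77 and 3.69. Those with 20 or more entries per 100 nt had 1.56, 1.56, 1.15 and 1.21. In library 2 the interval of the least covered class (1.28 to 2.56) contained the value of the best covered one. The classes between them had 2.45, 2.57, 2.57 and 2.22 with 2 to 5 entries, 2.42, 3.35, 3.44 and 2.95 with 5 to 10, and 1.91, 1.66, 1.75 and 0.851 with 10 to 20. Density thus rose and then fell over the classes in library 2 and was not steady in libraries 3 and 4. Each position and length is listed only once per transcript and library, which bears on this comparison. Repeats of a footprint add no entry, also on codons with fewer than 21 entries, and how many were lost cannot be read here. The full limit of 21 entries was reached on 18 codons of single transcripts in the start window of library 1, of which 1 was a start codon. In libraries 2 to 4 it was reached on 0. In library 1, 57.1% of the codons of single transcripts with any entry had just 1, and in libraries 2 to 4 73.2%, 71.1% and 76.2%. The part of this single listing in the start codon densities was not tested.

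**Figure D4:**
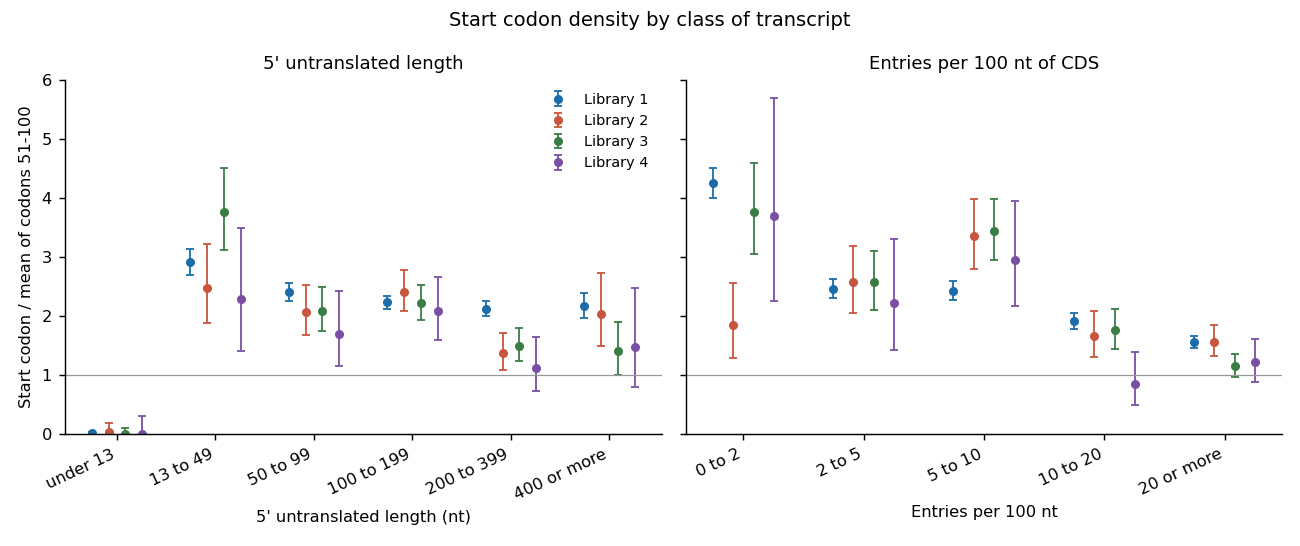
Start codon density in classes of transcripts by length of the 5' untranslated region (left, nt) and by entries per 100 nt of CDS (right, transcripts with at least 13 nt before the start), with exact Poisson intervals at 95%. Transcripts with under 13 nt lie at 0 to 0.0331, and the best covered class lies between 1.15 and 1.56.

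Few transcripts carried a footprint on the start codon, though more than on an average codon of the start window, and fewer did on codon 5. The 5897 entries on codon 1 came from 1747 transcripts, 9.31% of those in the start window, and the top 10 transcripts held 5.82% of them. Within libraries 1 to 4 the top 10 held 3.715%, 19.2%, 15.0% and 27.6%, so the smaller libraries were more concentrated. The 4122 entries on codon 5 came from 1386 transcripts, 7.39%, so a low share is not particular to the start codon. Over the 100 codons of the start window, 98138, 14492, 20064 and 6552 codons of single transcripts held an entry in libraries 1 to 4. Of these, 1682, 228, 360 and 109 were start codons and 1238, 178, 328 and 97 were codon 5. Both were above an even share over the 100 codons in all 4 libraries. Of 530 transcripts with at least 100 entries in the start window, 358 had none on codon 1. Of these 530, 485 had at least 13 nt before the start, and 313 of the 485 had none. Only 113 of the 530 exceeded the 1% that an even spread over 100 codons would give. The highest share was 31.96%, on ENSMUST00000020637 (188 nt before the start, CDS of 1776 nt), where 62 of 194 start window entries lay on codon 1. They were 21 of 85 entries in library 1, 14 of 38 in library 2, 19 of 49 in library 3 and 8 of 22 in library 4, so that start codon was high in all 4. Codons 2 to 34 took a median of 17.7% of a transcript's start window, with quartiles of 2.39% and 55.9%. The even share of 33% was exceeded by 233 of the 530 transcripts, and 58 had no entry on these codons.

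At the other end of the CDS, with every entry counted equally, the profile fell and showed no peak at termination. The last sense codon, which is in the P-site when a stop codon is read, held 420, 53, 71 and 19 entries. Its density was 0.187 (interval 0.170 to 0.206), 0.209 (0.157 to 0.273), 0.226 (0.177 to 0.286) and 0.207 (0.124 to 0.323). The stop codon itself held 157, 12, 32 and 8 entries, a density of 0.0699, 0.0473, 0.102 and 0.0870. The second last sense codon stood at 0.533, 0.520, 0.466 and 0.413. These 3 codons lay below every reference codon in 4 of 4 libraries. With each transcript of 50 or more entries counted equally, the last sense codon had 0.158, 0.768, 0.2502 and 0.2802, and the highest of these 3 codons had 0.455, 1.297, 0.533 and 0.5504. In library 2 that value was above the reference mean, as was its value for 30 nt footprints alone (1.39). The last sense codon and the stop codon of library 2 stayed below that mean. They stood at 0.768 and 0.0464 with equal weights and at 0 and 0.0332 for 30 nt alone. The values above the mean were thus those of the second last sense codon.

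The fall covered the last few codons. The third last sense codon had 0.863, 0.524, 0.727 and 0.674, below every reference codon in 3 of 4 libraries, and the sixth last sense codon was back at 1.103, 1.03, 1.12 and 1.28. Averaged over the 10 codons that end with the second last sense codon, density was 0.909, 0.857, 0.948 and 0.997. Codons 13 to 20 from the end had 0.998, 0.978, 1.06 and 1.05, and codons 21 to 34 had 1.06, 1.07, 1.13 and 1.03. The intervals of codons 21 to 34 lay above 1 in libraries 1 (1.04 to 1.07), 2 (1.03 to 1.101) and 3 (1.101 to 1.16) and contained 1 in library 4 (0.976 to 1.09). Beyond the stop codon, P-sites 4 to 30 nt into the 3' untranslated region were 6.17%, 6.62%, 5.22% and 6.22% as dense as those 32 to 6 nt before the last base of the CDS. Transcripts whose annotation ends at or soon after the stop codon are part of that comparison, since the table gives no length for the 3' untranslated region.

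**Figure D5:**
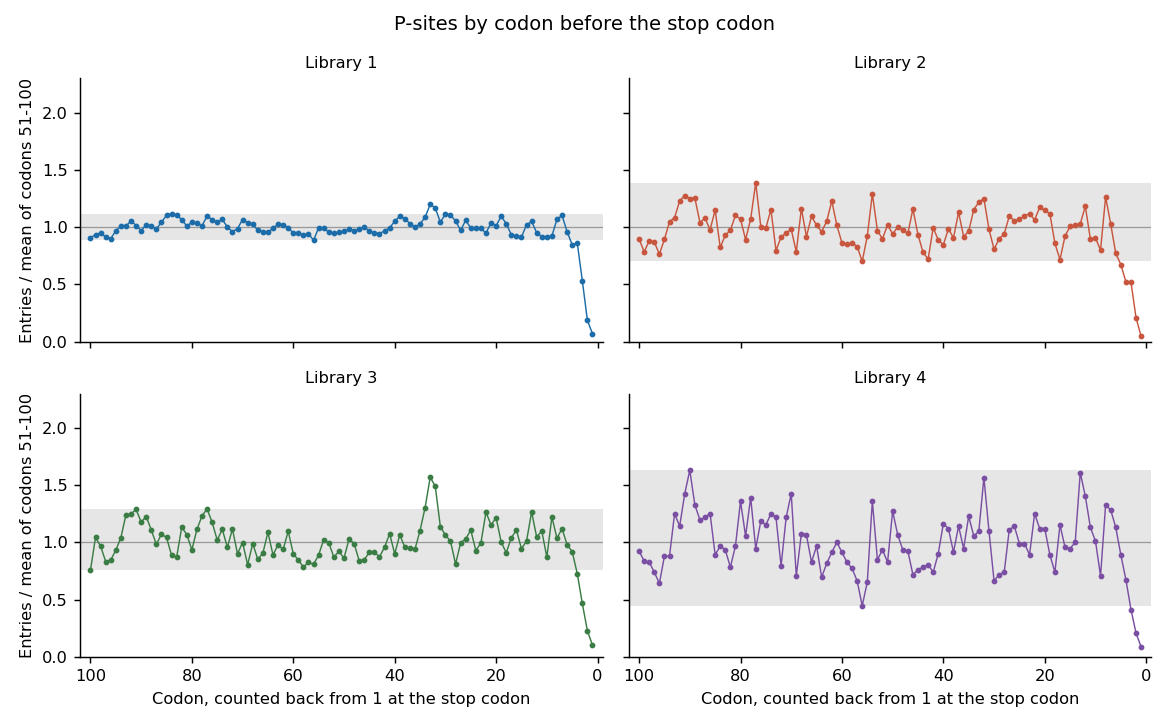
Density by codon over the last 100 codons in each library (x axis, codon counted back from 1 at the stop codon; y axis, entries over the mean of codons 51 to 100 from the end; grey band, range of the reference codons). All 4 libraries fall below the band over the last 3 codons, to between 0.0473 and 0.102 on the stop codon.

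The fall differed between classes of transcripts. A footprint near the stop codon needs sequence beyond it, and 5480 transcripts had a footprint that ended 20 nt or more past the stop codon, a class chosen from the footprints themselves. On these the last sense codon stood at 0.262, 0.454, 0.258 and 0.385 and the stop codon at 0.133, 0.0478, 0.0894 and 0.0350, still under the reference mean in every library. Their 10 codons up to the second last sense codon had 1.06, 1.11, 1.15 and 1.41, above the reference mean in 4 of 4 libraries where all transcripts together were below it. The choice of this class may itself favour transcripts with more entries near their end. The part of annotation in these values was not tested. On 2058 transcripts the annotated CDS is no multiple of 3, so codons counted from its 2 ends lie in different frames and are positions only. There the position of the last sense codon stood at 0.0448 and 0.0533 in libraries 1 and 2 and held no entry in libraries 3 and 4. Their stop windows held 16568, 1696, 2056 and 554 entries. The first 3 bases of the CDS of these transcripts stood at 0.792, 0.429, 0.783 and 0.516, from 149, 10, 23 and 5 entries.

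Frame at the end was read on transcripts whose CDS is a multiple of 3. As on codon 1, it has to be read with the base ahead, because density itself fell over these codons. On the last 2 sense codons 70.9%, 70.7%, 69.0% and 46.4% of 1593, 184, 216 and 56 entries were in frame 0, against 55.3%, 46.5%, 49.8% and 42.0% over the stop window. These codons leave out the base just ahead of them, which held 560, 19, 45 and 8 P-sites on transcripts of any CDS frame. Their own last base, which is counted, held 45, 6, 3 and 5. The part of this difference in the high shares was not tested. On the stop codon of these transcripts the share was 30.9% of 152 entries in library 1 and 34.4% of 32 in library 3, while libraries 2 and 4 had only 12 and 8 entries. Footprints of 31 and 32 nt made up 30.6% of stop codon entries in library 1 and 6.25% in library 3, against 48.3% and 49.3% on the last 2 sense codons.

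The last 3 codons, the stop codon included, were rarely occupied on single transcripts. Of 500 transcripts with at least 100 entries in the stop window, 391 had none there, and 25 exceeded the even share of 3%. No other stretch of 3 codons was counted on these 500. Over all stop window transcripts, 94028, 14829, 17739 and 5929 codons of single transcripts held an entry in libraries 1 to 4, over 100 codons. The last 3 codons together were occupied on 793, 129, 154 and 54 transcripts, fewer than an average single codon in all 4 libraries. The highest share was 36.9%, on ENSMUST00000021864 (CDS of 861 nt), with 45 of 122 stop window entries. Libraries 1 to 4 gave 24, 7, 10 and 4 of these 45 entries, so all 4 contained them. Entries on the last sense codon came from 313 transcripts, and the top 10 held 15.6% of the 563 entries. Within libraries 1 to 4 the top 10 held 14.05%, 22.6%, 39.4% and 52.6% of 420, 53, 71 and 19 entries.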

How the data were processed

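Per the labels' protocols, ribosome pulldown and LACEseq library preparation were done by Immagina. For the footprints, STAR 2.7.10b, UMI-tools 1.1.6 and cutadapt 5.2 with GRCm39 are named in the submitters' processing notes, and no source used here names the P-site tool. The deposited table is not a table of read counts: it lists, per the file headers, transcript, position, length, CDS limits and library of each distinct footprint. The CDS was taken to end with the stop codon. Transcripts carry no gene names and 0 of their identifiers were found in the gene tables used, so gene lists, named genes, mRNA level and sequences are not reported here.

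The mRNA values are raw counts per gene as deposited by the authors (Trimmomatic, STAR, SAMtools and HTSeq on GRCm39, per the submitters' processing notes), with 8414028 to 19454390 counts per library, used as CPM for the marker check alone.

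Entries were summed per codon with Python 3.11.15, matplotlib 3.10.9, numpy 2.4.6, scipy 1.17.1 and pandas 2.3.3, and the scripts were tested on simulated data. Shares of entries were read without a test. Exact intervals at 95% cover counting error only. The windows, codon stretches, transcript classes and alternatives were chosen with earlier results of these data known. Named transcripts are those with the highest share, among transcripts with at least 100 entries in the window, on codon 1 or on the last 3 codons. Alternatives were equal weight for each transcript with 50 or more entries, a CDS of at least 1200 nt, a P-site 12 nt from the 5' end, single lengths and 28 to 30 nt, frame 0, reference codons 34 to 100, leaving out the 1% of transcripts with the most entries, and leaving out each library. The 50 entries were counted in the window over the 4 libraries together, and transcripts below that number were left out. Alternatives added after seeing the data were a P-site at 13 nt, transcripts with identical entries counted once, 13 or more bases before the start, a CDS that is a multiple of 3, a footprint 20 nt or more past the stop codon, and 44 or more bases before the start codon.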

Additional observations from a re-analysis of the deposited data

How the results depend on the processing

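In all, 255 values under alternatives were read, each a median over the libraries used. Of the main measures, 161 moved by less than the spread between libraries and 23 by more. In addition, 1 went from below to above the reference mean, by more than that spread on each side. For codon 5, the last sense codon, the stop codon and the stretch before the start, 44 moved by less and 26 by more. The 161 and the 44 include the values with each library left out, which by construction could not move by more. Start codon density (1.84) was 0.955 with the P-site at 12 nt, 1.59, 1.54 and 2.09 for 26, 29 and 31 nt alone, 2.36 in frame 0, 2.07 with 13 or more bases before the start and 2.14 on transcripts with a footprint 20 nt or more past the stop codon. On that last class codons 2 to 10 (1.06) stood at 1.31, the highest of the last 3 codons (0.493) at 0.648 and the 10 codons before the last 2 (0.928) at 1.13, on the other side of the reference mean. The highest of the last 3 codons was 0.241 at 12 nt, 0.414 at 13 nt and 0.690 in frame 0. Codons 2 to 34 (1.00) stood at 1.11 with a CDS of at least 1200 nt. The 10 codons before the last 2 stood at 0.805 with that CDS, 0.840 for 32 nt alone and 0.867 without the 277 transcripts with the most entries. Frame 0 (46.1% in the start and 48.2% in the stop window) was 16.4% and 13.6% at 12 nt, 51.6% and 55.8% for 31 nt, and, in the start window, 40.4% for 27 nt and 51.3% for 32 nt. The share of 31 and 32 nt on codon 1 (44.8%) was 40.2% with equal weights. Why these values moved was not tested, except that the 12 nt offset moves each P-site by construction.

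Leaving out each library gave 1.81 to 1.86 for the start codon, 1.01 to 1.11 for codons 2 to 10, 0.975 to 1.03 for codons 2 to 34, 0.909 to 0.948 before the last 2 codons and 0.466 to 0.520 for the highest of the last 3. Frame 0 ranged from 44.5% to 47.7% and from 46.5% to 49.8%, and the 31 and 32 nt share from 42.9% to 46.7% on codon 1 and from 38.6% to 48.3% on the last 2 sense codons. Counting transcripts with identical entries once left 10021 start and 9920 stop window transcripts and a start codon density of 1.90. One transcript per gene was not run, because transcripts could not be tied to genes. No paired analysis was possible because the library names in the table match no label and carry no group. With 8 to 157 entries on the stop codon, its density is known only roughly in libraries 2 and 4.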

Other observations

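Values seen in the profiles and belonging to no planned measure are given here without a test. Codons 26 and 27 stood above the reference mean in all 4 libraries, at 1.17, 1.66, 1.34 and 1.501 for codon 26 and 1.07, 1.40, 1.37 and 1.61 for codon 27. Counted back from the stop codon, codons 32 and 33 did so as well, at 1.17, 1.25, 1.49 and 1.57 for codon 32 and 1.20, 1.22, 1.57 and 1.098 for codon 33. Codon 26 exceeded every reference codon in 2 libraries, codon 27 in 1, and codons 32 and 33 from the end in 2 each. Standing above the mean is not particular to them, since reference codon 89 of the start window had 1.05, 1.37, 1.46 and 1.95. Codon 5 had higher densities among the shortest footprints than among the longest in all 4 libraries: it stood at 1.495, 2.31, 2.63 and 2.57 for 26 nt alone, and at 1.22, 1.33, 1.45 and 1.12 for 32 nt alone.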
